A study of Mus musculus with 2 samples.

Results

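Oxidative phosphorylation genes are described here in microglia sorted from the brain cortex of 5xFAD mice, by respiratory complex and by genome of origin. The members were chosen by symbol alone. They are all genes named Nduf, Uqcr, Atp5 or Sdha to Sdhd and their assembly factors, the Cox4 to Cox8 families, and the protein-coding genes of mitochondrial DNA, with processed pseudogene symbols left out. They come to 110 of the 31053 genes in the deposited count tables. Of these, 97 are encoded in the nucleus and 13 in mitochondrial DNA. All 13 genes with the mitochondrial prefix were members.

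Single cells of 2 groups were profiled by droplet sequencing, with 1 library per group and 3 mice pooled in each. All mice were male 5xFAD hemizygotes on C57BL/6J, which carry human transgenes with familial Alzheimer mutations under the neuronal Thy1 promoter. Control mice received 5 uL of Visudyne, a light-sensitive dye, into the cisterna magna. Photoconversion mice received the same dose followed by 5 transcranial steps of non-thermal red light at 689 nm, which ablates meningeal lymphatic vessels. Injections began at 4 months of age and were repeated 3 weeks later, and cortex was taken a further 3 weeks on, at a labelled age of 5.5 months. The sort took live singlets that were Ly6G- CD45+ CD11b+. With 1 pooled library per group there was no test, and the intervals below cover counting error within these libraries and not the spread between mice.

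Each library listed 2000 barcodes. A barcode was kept if it had 200 detected genes or more and if mitochondrial genes took no more than 10% of its UMIs (counted molecules). They numbered 555 in the control library (2422711 UMIs, median 2670 per barcode) and 317 in the photoconversion library (1816177 UMIs, median 3410). The libraries shared 27 barcode sequences, none of them kept in both. The microglia marker list summed to 27804 and 24641 UMIs per 1000000 UMIs of the same barcodes (CPM) in control and photoconversion, and at least 3 UMIs of that list were found in 540 of 555 and 306 of 317 barcodes. Astrocyte markers summed to 173 and 146 CPM, endothelial and mural markers to 135 and 123, oligodendrocyte markers to 123 and 100 with Mog and Cldn11 at 0, monocyte markers to 76.0 and 16.0, border macrophage markers to 37.1 and 9.91, and neuron markers to 9.91 and 9.36. At least 3 UMIs of such other-type markers were found in 62 control and 56 photoconversion barcodes. Monocyte and border macrophage markers were thus lower in photoconversion. Barcodes with at least 3 monocyte UMIs numbered 7 in control and 2 in photoconversion, and those with 3 border macrophage UMIs 5 and 0. The part of these markers in the differences between libraries was tested no further than by leaving out barcodes with other-type markers.

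As background, complexes I and II pass electrons from NADH and succinate to ubiquinone, complex III passes them to cytochrome c, complex IV reduces oxygen, and complex V, the ATP synthase, uses the resulting proton gradient to make ATP. Complex II is encoded wholly in the nucleus and is also an enzyme of the citrate cycle, whereas the other complexes combine subunits of both genomes. Microglia rely on oxidative phosphorylation at rest and are known to shift towards glycolysis on inflammatory activation.

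Promoters of nuclear members are known to carry motifs of the factors NRF1, the ETS family (GABPA), YY1 and the estrogen-related receptors, so the RefSeq windows of the members (GRCm38.p6, 250 bases before to 50 after each start) were searched on both strands. Windows were found for 78 of 96 nuclear symbols, 83 windows in all. The NRF1 motif (GCGCA and GCGC with any base between them) was in 22 of them (26.5%), against 6.38% of 21263 windows of protein-coding genes. By complex it was in 8 of 34 windows for complex I, 2 of 3 for complex II, 1 of 5 for complex III, 1 of 13 for complex IV and 6 of 16 for complex V. The YY1 motif AAGATGGCG was in 9.64% of member windows against 1.83% of all, the estrogen-related receptor motif TCAAGGTCA in 2.41% against 0.334%, and the ETS motif CCGGAAGT in 6.02% against 5.15%. Each motif was searched on its own, so bases may count for more than 1 of them, and 33 of 83 windows held at least 1 of the 4. These matches describe letters, not binding. The following 5 stretches, on the minus strand and outside annotated exons, show 1 example each for complexes I, III and IV and 2 for complex V, with the motif in capitals. They were chosen for their position outside exons after the matches were seen. Those of Ndufs5 (chr4:123718250-123718309), Cox6a1 (chr5:115349041-115349100) and Atp5h (chr11:115420026-115420085) hold the NRF1 motif, ending 88, 107 and 131 bases before the start. That of Uqcr11 (chr10:80406855-80406912) holds the ETS motif, ending 58 bases before it. That of Atp5g3 (chr2:73911345-73911403) holds the reverse complement of the estrogen-related receptor motif, ending 43 bases before it.
Ndufs5: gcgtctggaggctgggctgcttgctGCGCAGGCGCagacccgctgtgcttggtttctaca
Uqcr11: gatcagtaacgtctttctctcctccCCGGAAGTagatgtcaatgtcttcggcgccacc
Cox6a1: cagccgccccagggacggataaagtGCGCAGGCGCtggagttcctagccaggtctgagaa
Atp5h: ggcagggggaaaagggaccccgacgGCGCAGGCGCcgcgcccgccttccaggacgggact
Atp5g3: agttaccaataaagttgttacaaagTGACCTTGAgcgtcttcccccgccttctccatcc

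Nuclear and mitochondrial members together made up more than 5% of the UMIs of kept barcodes in both libraries. Nuclear members summed to 20241 CPM in control (95% interval 20063 to 20421) and 19879 CPM in photoconversion (19674 to 20085). Mitochondrial members summed to 33584 CPM (33354 to 33815) and 33289 CPM (33024 to 33555). There were 1.66 and 1.67 mitochondrial UMIs per nuclear UMI. The mitochondrial genes are those of the 10% limit on barcodes, so their level is bounded by that limit and is given as a description.

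The complexes contributed unequally, and in nearly the same proportions in both libraries. Nuclear subunits of complex I summed to 6215 CPM in control and 6042 in photoconversion, those of complex IV to 5906 and 5860, those of complex V to 4832 and 4638, those of complex III to 2079 and 2065, and those of complex II to 364 and 292. Of the mitochondrial genes, the 3 of complex IV summed to 13337 and 13303 CPM, the 7 of complex I to 9661 and 9380, the 2 of complex V to 6741 and 6868, and mt-Cytb of complex III stood at 3845 and 3738. The mitochondrial UMIs per nuclear UMI were 2.26 and 2.27 in complex IV and 1.40 and 1.48 in complex V.

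Of the 97 nuclear members, 81 reached the minimum of 100 UMIs over both libraries. These were 36 of 36 complex I subunits, 4 of 4 of complex II, 8 of 8 of complex III, 12 of 19 of complex IV, 15 of 16 of complex V and 6 of 14 assembly and accessory factors. Among the 16 under the minimum, 4 had no UMI in kept barcodes. These were Cox7b2, Cox8b, Cox8c and 1 of the 2 rows named Atp5o, and a count of 0 allows up to 1.24 CPM in control and 1.65 CPM in photoconversion. Of the 13 mitochondrial genes, 12 passed. The exception was mt-Nd6, the subunit encoded on the opposite strand from the others, with 13 and 15 UMIs. Some mitochondrial members overlap another member. On the same strand these are mt-Atp8 with mt-Atp6, mt-Atp6 with mt-Co3 and mt-Nd4l with mt-Nd4. On the opposite strand mt-Nd5 overlaps mt-Nd6, so reads of these genes may be split. The counts were 231 and 170 UMIs for mt-Atp8 beside 16100 and 12303 for mt-Atp6, and 289 and 207 for mt-Nd4l beside 5712 and 4172 for mt-Nd4.

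Alternative isoforms were uneven in their counts. Cox4i1, the widely expressed form of the regulatory subunit 4, had 2657 UMIs in control and 2055 in photoconversion, and Cox4i2, its hypoxia- and lung-associated form, had 1 and 3. Cox8a had 2113 and 1542, and its muscle and testis forms Cox8b and Cox8c had 0. Cox6b1 had 1339 and 929 against 9 and 4 for the testis form Cox6b2. Cox7a2 had 847 and 611 against 3 and 1 for the muscle form Cox7a1, and Cox7b had 504 and 403 against 0 for Cox7b2. The exception was subunit 6a, where both forms were counted. Cox6a1, the liver-type form, had 1530 and 1149 UMIs, and Cox6a2, the form known from heart and skeletal muscle, had 512 and 392. All 3 genes for the c-ring protein of ATP synthase were counted, Atp5g1 with 551 and 349 UMIs, Atp5g2 with 1366 and 1046, and Atp5g3 with 284 and 231.

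Photoconversion against control asks whether loss of meningeal lymphatic drainage was accompanied by different levels of these genes. The nuclear sum differed little, with a log2 ratio of -0.026 (-0.046 to -0.0065) that turned positive with trimmed-mean (TMM) scaling (0.034) and when each barcode weighed the same (0.053). The mitochondrial log2 ratio was -0.013 (-0.028 to 0.0025), and it was positive in 6 of 9 other settings, TMM scaling included (0.047). The share of Cst7>P2ry12 barcodes, in which nuclear members were higher, also differed, with 207 of 555 in control and 157 of 317 in photoconversion. Within Cst7>P2ry12 and within P2ry12>Cst7 barcodes the nuclear log2 ratios were -0.049 and -0.12, and within the Malat1-poor, middle and rich ranges they were -0.081, 0.0062 and -0.056. In the 58 control and 27 photoconversion barcodes with equal UMIs of Cst7 and P2ry12, the mitochondrial log2 ratio was -0.49. Of these, 45 and 21 had no UMI of either gene, and the median depth was 766.5 and 707 UMIs. Monocyte markers stood there at 1169 CPM in control and 51.6 in photoconversion, and endothelial and mural markers at 286 and 2037.5. The part of these markers in the ratio was not tested.

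Single members were compared by size alone. Called here means a ratio of CPM at or beyond a log2 of 0.32 in either direction, with 0.5 counts added and at least 100 UMIs over the groups compared. Of the 81 nuclear members, 2 were called higher and 2 lower in photoconversion, against 7.36% of 4009 genes called higher and 16.3% called lower. The count of 4 depended on the setting, with 16 when each barcode weighed the same, 8 when thinned to 1000 UMIs and 8 without barcodes with other-type markers. Their median log2 ratio was -0.049 beside -0.062 for all genes, with 27 members above 0 and 54 below. None of the 12 mitochondrial genes was called, and their log2 ratios lay between -0.070 and 0.079.

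**Figure D1:**
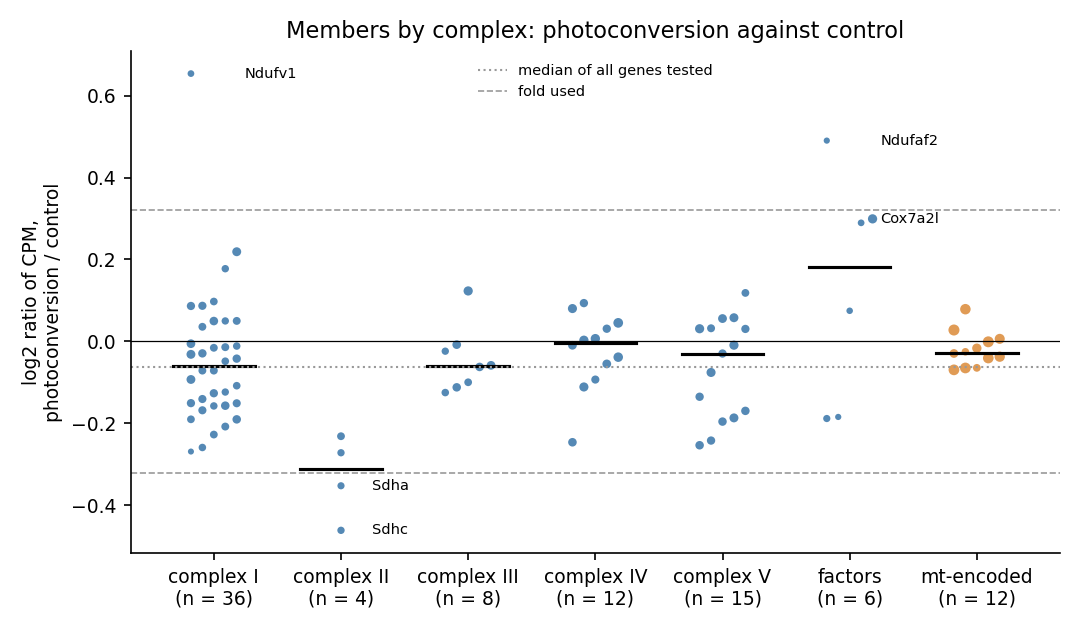
Log2 ratio of CPM, photoconversion to control, for each nuclear and mitochondrial member with at least 100 UMIs, grouped by complex; horizontal bars are group medians, the dotted line is the median of all genes and the dashed lines mark the size called. Ndufv1 and Ndufaf2 lie above the upper dashed line, Sdhc and Sdha below the lower one, and all 4 complex II subunits are below 0.

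Complex II stood lowest of the complexes in photoconversion. Its 4 subunits summed to 364 CPM in control (340 to 388) and 292 CPM in photoconversion (268 to 318), a ratio of 0.802 (0.719 to 0.895) from 881 and 530 UMIs. Sdhc, a membrane anchor subunit that binds ubiquinone (chr1:171127165-171150603), had 208 and 113 UMIs, or 85.9 and 62.2 CPM, a ratio of 0.725 (0.571 to 0.916). In barcodes with other-type markers Sdhc stood at 102 and 98.2 CPM, and in the rest at 82.2 and 50.1. The flavoprotein Sdha (chr13:74322254-74350280), which oxidises succinate, had 169 and 99 UMIs, or 69.8 and 54.5 CPM, and a ratio of 0.781 (0.603 to 1.01). The second anchor subunit Sdhd stood at 79.3 and 65.5 CPM (0.827, 0.652 to 1.04) and the iron-sulfur protein Sdhb at 129 and 110 CPM (0.851, 0.709 to 1.02). All 4 were lower in the photoconversion library, although the intervals of 3 of the 4 ratios include 1. The summed ratio was 0.858 within Cst7>P2ry12 barcodes and 0.687 (0.553 to 0.849) within P2ry12>Cst7 barcodes, and its log2 was -0.40, -0.17 and -0.66 within the Malat1-poor, middle and rich ranges. In barcodes with equal Cst7 and P2ry12 UMIs the log2 ratio was 0.067.

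The other members called were in complex I. Ndufv1, the flavoprotein subunit that takes electrons from NADH (chr19:4007384-4012806), had 83 UMIs in control and 98 in photoconversion, or 34.3 and 54.0 CPM. The ratio was 1.58 (1.16 to 2.14), with 1.86 in Cst7>P2ry12 barcodes, 1.44 in P2ry12>Cst7 barcodes and 0.986 in the Malat1-rich range. In barcodes with equal Cst7 and P2ry12 UMIs it had 11 UMIs in control and 0 in photoconversion. In barcodes with other-type markers it stood at 54.5 and 58.9 CPM, and in the rest at 29.8 and 52.3. Ndufaf2, a complex I assembly factor, had 56 and 59 UMIs and a ratio of 1.41 whose interval includes 1 (0.958 to 2.06). Cox7a2l, grouped here as a factor of supercomplexes of complexes III and IV (chr17:83501918-83517330), lay just under the size called. It rested on many more UMIs, 1353 and 1248. Its level was 558 CPM in control and 687 in photoconversion, a ratio of 1.23 (1.14 to 1.33) that lay between 1.14 and 1.36 in every class and Malat1 range. Whether its protein is functional in C57BL/6J mice was not tested. Cox7a2l contributed most of the UMIs of the assembly and accessory factors, whose sum went from 845 to 982 CPM (ratio 1.16, 1.09 to 1.24). Ndufa1 stood at 398 and 463 CPM (1.16, 1.06 to 1.28). Among members of the smallest ratios not called, Ndufs1, the large iron-sulfur subunit of complex I, had 63 and 39 UMIs and a log2 ratio of -0.27, and Ndufb6 had a log2 ratio of -0.26. Ndufa4l2, a paralogue of Ndufa4, had 0 UMIs in control and 13 in photoconversion (7.16 CPM), at least 5.78-fold higher than the floor of 3 counts per library. All 13 lay in 3 barcodes, each with markers of another cell type.

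Microglia in amyloid models are commonly divided by Cst7, which encodes cystatin F and marks disease-associated microglia, and P2ry12, a purinergic receptor of homeostatic microglia. Barcodes were assigned by which gene had more UMIs, and the members played no part in that. There were 207 Cst7>P2ry12 and 290 P2ry12>Cst7 barcodes in control (median 4655 and 2206.5 UMIs) and 157 and 133 in photoconversion (5852 and 2739). The difference was 1 UMI in 57 and 31 barcodes. The microglia marker list, which includes P2ry12, summed to 21761 CPM in Cst7>P2ry12 and 40164 in P2ry12>Cst7 barcodes of the control library, and to 20404 and 37193 in photoconversion. Barcodes with other-type markers numbered 39 and 10 in control and 37 and 12 in photoconversion, and their part in the differences below was examined by leaving them out.

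Nuclear members were higher in Cst7>P2ry12 barcodes of both libraries, and mitochondrial members much less so. In control, nuclear members summed to 22453 CPM in Cst7>P2ry12 and 15731 in P2ry12>Cst7 barcodes, a log2 ratio of 0.51 (0.48 to 0.54). In photoconversion they summed to 21705 and 14505 CPM, a log2 ratio of 0.58 (0.54 to 0.62). Mitochondrial members summed to 34659 and 30641 CPM in control (log2 0.18) and 33803 and 32173 in photoconversion (log2 0.071). The mitochondrial UMIs per nuclear UMI were accordingly 1.54 in Cst7>P2ry12 and 1.95 in P2ry12>Cst7 barcodes of control, and 1.56 and 2.22 in photoconversion. Without barcodes with other-type markers the nuclear log2 ratio in control was 0.56 in place of 0.51, and the mitochondrial one was 0.034 in place of 0.18. The photoconversion mitochondrial ratio was below 1 when each barcode weighed the same, within the Malat1 middle range and without the mitochondrial limit, with log2 values of -0.059, -0.041 and -0.060.

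With scaling by summed UMIs, the nuclear difference was seen in complexes III, IV, V and I, and was not detectable in complex II. On the log2 scale it was 0.70 in control and 0.75 in photoconversion for complex IV, 0.63 and 0.72 for complex III, 0.50 and 0.59 for complex V and 0.38 and 0.46 for complex I. For complex II it was -0.13 (-0.34 to 0.074) and 0.19 (-0.11 to 0.49), with intervals that include 0 in both libraries. TMM scaling moves all these log2 ratios up by 0.36 in control and 0.34 in photoconversion. That is more than the lower limits for complex II lie below 0, so the lack of a difference there rests on the scaling. The mitochondrial subunits followed another order, with 0.27 and 0.18 for complex IV, 0.25 and 0.11 for complex V, 0.12 and 0.016 for complex III and 0.028 and -0.087 for complex I.

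**Figure D2:**
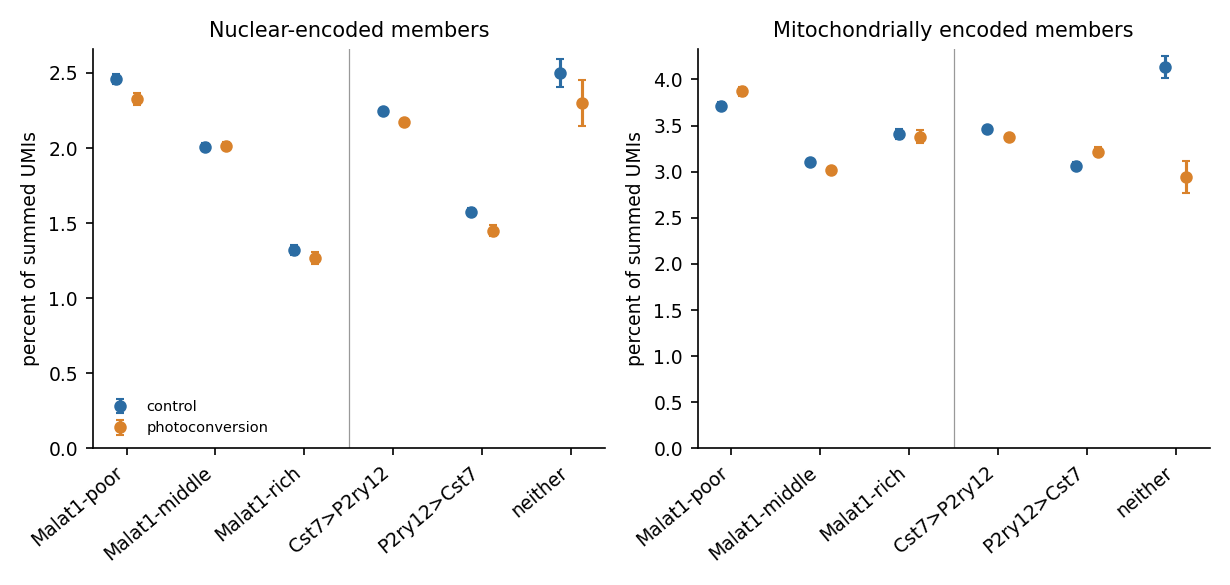
Share of summed UMIs, in percent, taken by nuclear (left) and mitochondrial members (right) in each Malat1 range and in each Cst7/P2ry12 class, for both libraries; vertical bars are exact Poisson intervals for counting error. Nuclear shares decline from the Malat1-poor to the Malat1-rich range and are higher in Cst7>P2ry12 than in P2ry12>Cst7 barcodes, while mitochondrial shares are lowest in the middle of the Malat1 ranges and farthest apart between libraries in barcodes with equal Cst7 and P2ry12 UMIs (neither).

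Of the nuclear members tested for size, 43 of 75 were called higher and 4 lower in Cst7>P2ry12 barcodes of control, against 22.8% and 42.2% of all genes. In photoconversion 51 of 74 were called higher and 2 lower, against 29.4% and 34.6%. Their median log2 ratios were 0.42 and 0.49, beside -0.19 and -0.050 for all genes. Transcript length moved with these ratios. Members of at most 700 bases in median annotated length had medians of 0.62 and 0.64, beside 0.52 and 0.52 for all short genes. Longer members had 0.25 and 0.35, beside -0.25 and -0.12 for all longer genes. That limit was set after the values were seen, and the part of length was not tested. With TMM scaling all log2 ratios move up by 0.36 in control and 0.34 in photoconversion, members and other genes alike, so that small negative values turn positive. Of 74 members measured in both libraries, 41 were called higher in both and 1 lower in both, against 21.7% and 28.5% of 1864 genes. Those called higher in both were 15 of 34 complex I subunits, 0 of 3 of complex II, 4 of 8 of complex III, 10 of 12 of complex IV, 11 of 15 of complex V and 1 of 2 factors. Among the 12 mitochondrial genes, mt-Co1 was called higher in both. Across these 74 members the log2 ratios of the libraries correlated with Pearson's r of 0.87 and Spearman's rho of 0.83. Across 1864 genes r was 0.89, and in both cases the points share depth differences between the classes.

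**Figure D3:**
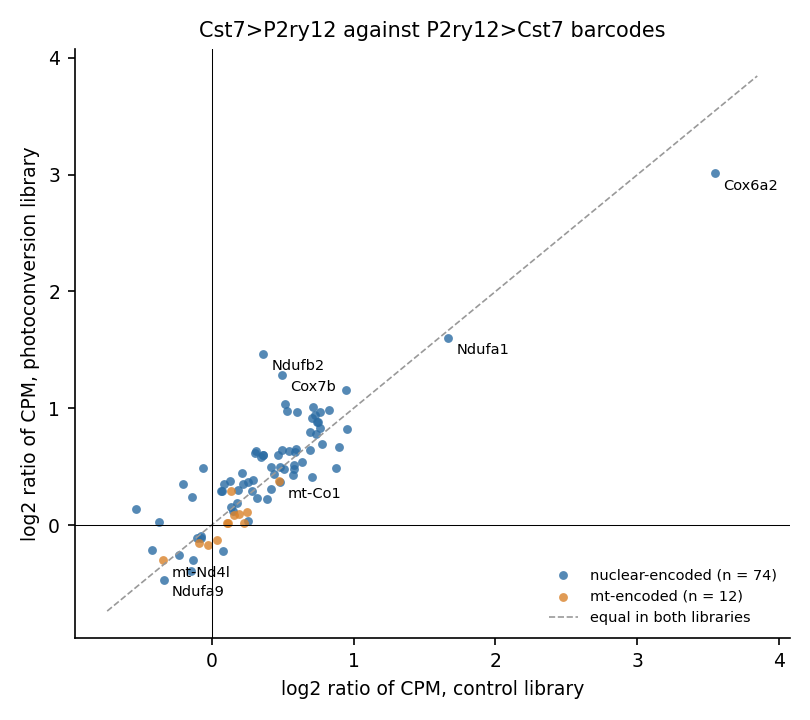
Log2 ratio of CPM, Cst7>P2ry12 to P2ry12>Cst7 barcodes, in control (x axis) against photoconversion (y axis), 1 point per member (74 nuclear, 12 mitochondrial). Cox6a2 and Ndufa1 lie farthest to the upper right, 68 of 74 nuclear members are on the same side of 0 in both libraries, and the mitochondrial genes cluster near 0; with TMM scaling all points move up and right by 0.34 and 0.36.

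Cox6a2 differed most of all members. It encodes the muscle-type subunit 6a of cytochrome c oxidase and lies on chromosome 7 (chr7:128205435-128206387, minus strand). In control it had 23 UMIs in P2ry12>Cst7 and 478 in Cst7>P2ry12 barcodes, or 27.4 and 326 CPM, an 11.9-fold ratio (7.84 to 19.0). In photoconversion it had 16 and 373 UMIs, or 34.2 and 285 CPM, an 8.32-fold ratio (5.06 to 14.7). In each library the Cst7>P2ry12 level was above the P2ry12>Cst7 level of either library. The 10 barcodes richest in it held 177 of 512 UMIs in control and 134 of 392 in photoconversion. Barcodes with other-type markers had 245 and 229 CPM and the rest 204 and 211. Within the Malat1 middle range the ratios were 9.52 and 7.46, within the rich range 18.1 and 14.6, and within the poor range 5.03 and 2.02 (0.906 to 5.61). The liver-type Cox6a1 stood at 439 and 733 CPM in P2ry12>Cst7 and Cst7>P2ry12 barcodes of control (1.67) and 415 and 712 in photoconversion (1.72). Cox6a2 overlaps Itgad on the opposite strand, which had 0 UMIs in every class. Of the genes within 60000 bases, Itgax, an integrin known as a marker of disease-associated microglia that lies 54778 bases away, stood at 14.3 and 147 CPM in P2ry12>Cst7 and Cst7>P2ry12 barcodes of control and 15.0 and 160 in photoconversion.

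Ndufa1, an accessory subunit of complex I encoded on the X chromosome (chrX:37187588-37191163), had the second largest difference. It stood at 169 CPM in P2ry12>Cst7 and 539 in Cst7>P2ry12 barcodes of control (3.19-fold, 2.66 to 3.84), and at 186 and 569 in photoconversion (3.06-fold, 2.45 to 3.86). Within the Malat1 middle range the ratios were 2.60 and 2.44. Without Cox6a2 and Ndufa1 the nuclear log2 ratio of control was 0.47 in place of 0.51, so the sum did not rest on these 2 genes. Ndufa2, another accessory subunit, stood at 301 and 469 CPM in control (1.56) and 302 and 439 in photoconversion (1.46).

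**Figure D4:**
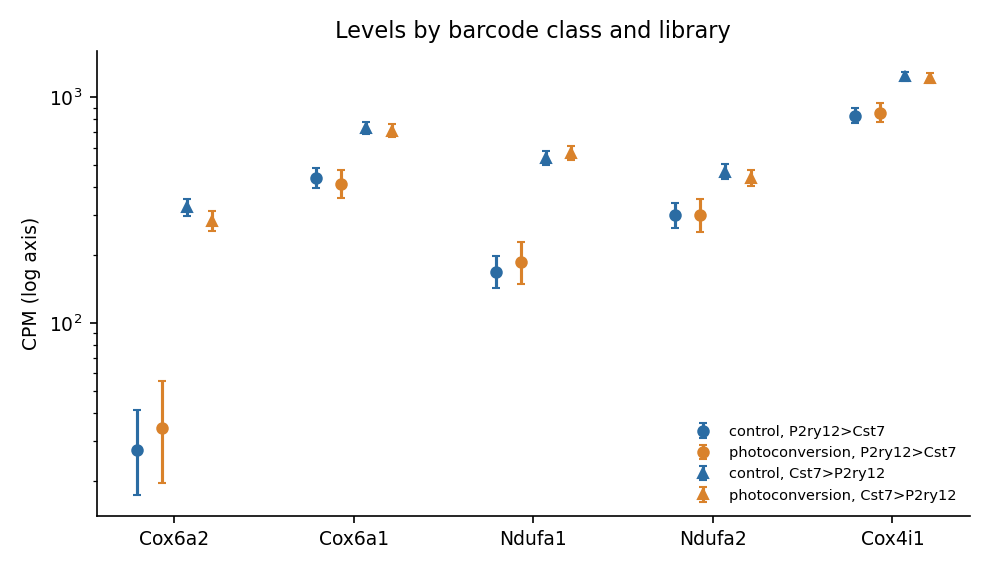
CPM on a log axis of Cox6a2, Cox6a1, Ndufa1, Ndufa2 and Cox4i1 in P2ry12>Cst7 and Cst7>P2ry12 barcodes of each library, with exact Poisson intervals. Cox6a2 goes from 27.4 to 326 CPM in control and from 34.2 to 285 in photoconversion, while Cox6a1 and Cox4i1 differ by less than 2-fold.

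Other members named for large ratios, many UMIs or isoform groups were also higher in Cst7>P2ry12 barcodes of both libraries. Atp5k, subunit e of ATP synthase, stood at 159 CPM in P2ry12>Cst7 and 309 in Cst7>P2ry12 barcodes of control (1.94) and 120 and 269 in photoconversion (2.25). Uqcrh and Uqcrq, small subunits of complex III, had ratios of 1.94 and 1.78 in control and 1.78 and 1.99 in photoconversion. Ndufb2, which overlaps Gm42420 on the same strand, had ratios of 1.29 (0.978 to 1.72) and 2.82. Cox7b had ratios of 1.41 and 2.46, so these 2 differed in size between the libraries. Atp5e, Cox8a and Cox4i1 had ratios of 1.70, 1.71 and 1.49 in control and 1.78, 1.62 and 1.43 in photoconversion.

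At the other end, Ndufa9, an accessory subunit that holds NADPH, stood at 102 and 81.1 CPM in P2ry12>Cst7 and Cst7>P2ry12 barcodes of control (0.793) and at 109 and 79.4 in photoconversion (0.728). Its log2 ratio in control was 0.026 with TMM scaling, where in photoconversion it remained negative. Sdhd had ratios of 0.750 and 0.871, Ndufs3 of 0.905 and 0.767, Ndufs4 of 0.855 and 0.841, and Uqcrc2, a core protein of complex III, of 0.776 and 1.03. The intervals of these ratios all include 1. Among members with at least 100 UMIs, the lowest ratio in control belonged to Ndufs8, an iron-sulfur subunit of complex I named here after its values were seen. It stood at 168 and 116 CPM in control (0.691, 0.549 to 0.870), whereas in photoconversion it stood at 120 and 133 CPM (1.11, 0.816 to 1.53). The 4 called lower in control were Ndufs8, Sdhd, Uqcrc2 and Ndufa9, and the 2 in photoconversion were Ndufa9 and Ndufs3. Ndufa4, now counted as a complex IV subunit, had ratios of 0.952 and 0.929. Among subunits of that complex with at least 100 UMIs, it was the one that did not lie above 1.

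The mitochondrial genes did not move as a block. mt-Co1, the catalytic subunit of cytochrome c oxidase, stood at 3576 CPM in P2ry12>Cst7 and 4982 in Cst7>P2ry12 barcodes of control (1.39, 1.33 to 1.45) and at 3552 and 4617 in photoconversion (1.30, 1.23 to 1.37). mt-Atp6 had ratios of 1.19 and 1.08, mt-Co2 of 1.15 and 1.07, mt-Co3 of 1.12 and 1.06, and mt-Cytb of 1.08 and 1.01. Of the complex I genes, mt-Nd1 had ratios of 1.03 and 0.917, mt-Nd2 of 0.943 and 0.901, mt-Nd3 of 0.985 and 0.892, mt-Nd4 of 1.08 and 1.01, mt-Nd5 of 1.10 and 1.23 and mt-Nd4l of 0.791 and 0.818. The mt-Nd4l value of control turned to a log2 ratio of 0.024 with TMM scaling, and that gene shares bases with mt-Nd4.

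Complex I was also divided, after its values were seen, into the 7 nuclear core subunits that carry out electron transfer, such as Ndufv1, and 29 accessory subunits. In Cst7>P2ry12 against P2ry12>Cst7 barcodes, 0 and 1 of 5 core subunits were called higher in control and photoconversion, and 16 and 20 of 29 accessory ones, against 22.8% and 29.4% of all genes. In each library 1 core and 1 accessory subunit were called lower, against 42.2% and 34.6% of all genes. The median log2 ratios were -0.15 and 0.14 for core and 0.36 and 0.44 for accessory subunits. Transcript length moved with this division, since none of the 5 core subunits and 14 of the 29 accessory ones had a median annotated transcript length of at most 700 bases. Its part in the difference was not tested.

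Malat1, a long noncoding RNA retained in the nucleus, divides the same barcodes into a poor range (below 0.5% of UMIs), a middle range and a rich range (2% or more). Control had 184, 162 and 209 barcodes in these ranges and photoconversion 117, 97 and 103. Of the poor barcodes, 126 of 184 in control and 75 of 117 in photoconversion had no Malat1 UMI at all. The median depth of the poor, middle and rich ranges was 2101, 6347.5 and 1822 UMIs in control and 2495, 9337 and 2388 in photoconversion. Within a log2 distance of 0.32 of the lower limit lay 22 and 17 barcodes and of the upper limit 61 and 34. Nuclear members summed to 24597, 20060 and 13186 CPM in the poor, middle and rich ranges of control, and to 23248, 20144 and 12685 in photoconversion. The poor-to-rich ratio was 1.87 (1.81 to 1.92) in control and 1.83 (1.77 to 1.90) in photoconversion. Microglia markers moved the other way, at 20247 CPM in the poor and 45725 in the rich range of control and 18206 and 41706 in photoconversion. Barcodes with other-type markers numbered 31 of 184 in the poor and 8 of 209 in the rich range of control, and 27 of 117 and 7 of 103 in photoconversion. Without those barcodes the nuclear log2 ratio was 0.94 in control and 0.87 in photoconversion, in place of 0.90 and 0.87, and the part of the microglia markers was not tested. Mitochondrial members summed to 37110, 30999 and 34088 CPM in control and 38697, 30139 and 33794 in photoconversion, with ratios of 1.09 and 1.15. In control the mitochondrial ratio was below 1 when each barcode weighed the same (log2 -0.14). The rich range had 2.59 and 2.66 mitochondrial UMIs per nuclear UMI, against 1.51 and 1.66 in the poor range.

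Over single barcodes, the nuclear share of UMIs had a median of 2.42% in the poor range of both libraries, 1.89% and 1.92% in the middle range and 0.959% and 1.12% in the rich range. Its Spearman correlation with the Malat1 share was -0.75 over 555 control and -0.68 over 317 photoconversion barcodes. With each barcode thinned to 1000 UMIs, which left 439 and 272, it was -0.68 and -0.66, and the medians were 2.4% and 2.3% in the poor and 1.15% and 1.1% in the rich range. Both shares have the same total as denominator. The nuclear share was nearly unrelated to the mitochondrial share, with rho of -0.14 and -0.11.

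By complex the poor-to-rich log2 ratios of nuclear subunits were 1.16 and 1.07 for complex IV, 1.03 and 1.04 for complex III, 0.96 and 0.95 for complex V, 0.70 and 0.66 for complex I and -0.21 and 0.058 for complex II. Of the nuclear members tested for size, 58 of 70 were called higher and 1 lower in control, against 38.6% and 38.6% of all genes. In photoconversion 43 of 55 were called higher and 0 lower, against 43.5% and 34.9%. Called higher in both libraries were 43 of 55 members and 39.8% of 897 genes, while 29.9% of genes were called lower in both. The medians were 0.87 and 1.03 for members and -0.014 and 0.16 for all genes. Cox6a2 and Ndufa1 again led, with log2 ratios of 2.96 and 2.79 and of 2.23 and 1.89, followed by Atp5k (1.61 and 1.55) and Ndufc1 (1.59 and 1.55). With TMM scaling the values are higher by 0.56 and 0.53.

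Transcript length moved with these ratios in members and in all genes. Members with a median annotated transcript length of at most 700 bases, a limit set after the values were seen, had median poor-to-rich log2 ratios of 1.09 (33 members) in control and 1.14 (31) in photoconversion. Longer members had 0.57 (37) and 0.47 (24). Over all genes the medians were 1.04 and 1.11 for short and -0.13 and -0.033 for longer transcripts. Short members were close to all short genes, of which they made up 33 of 168 in control and 31 of 140 in photoconversion. Longer members had higher medians than all longer genes, which also include them. The split does not match lengths, since the median length was 725 and 645 bases over members and 1595 and 1406 over all genes. The part of length in the difference between longer members and all longer genes was not tested. Spearman's rho with length was -0.58 and -0.44 over members and -0.55 and -0.56 over all genes.

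**Figure D5:**
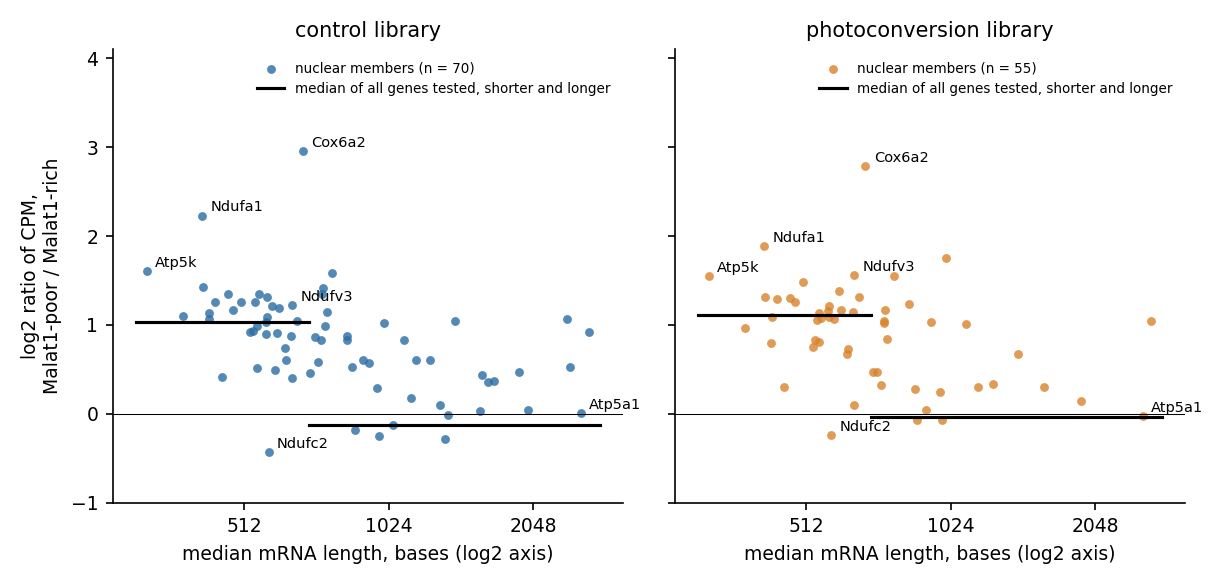
Log2 ratio of CPM, Malat1-poor to Malat1-rich barcodes, against the median annotated transcript length in bases, 1 point per nuclear member, for control (70 members) and photoconversion (55 members). Black lines are the medians of all genes of at most 700 bases and of longer ones; points decline with length, and Cox6a2 and Ndufa1 stand above members of like length.

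The Cst7 classes and the Malat1 ranges overlapped strongly. In control, 122 Cst7>P2ry12 barcodes were Malat1-poor, 73 middle and 12 rich, against 32, 81 and 177 P2ry12>Cst7 barcodes. In photoconversion the counts were 80, 61 and 16 against 15, 34 and 84. Within the middle range the nuclear log2 ratio of the classes was 0.22 in control and 0.41 in photoconversion, within the poor range 0.26 and 0.30, and within the rich range 0.35 and 0.017. These values lie below the 0.51 and 0.58 over all barcodes. In the rich range, with 12 and 16 Cst7>P2ry12 barcodes, the mitochondrial ratio of the classes was 2.04 in control and 1.32 in photoconversion. Conversely, in P2ry12>Cst7 barcodes alone the poor-to-rich log2 ratio was 0.68 and 0.58 in place of 0.90 and 0.87.

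Genes outside the rule but of the same pathway were described from lists chosen by function. The shares of all genes beside the counts are those given above, 7.36% higher and 16.3% lower in photoconversion against control, 22.8% and 42.2% for the Cst7 classes in control, and 29.4% and 34.6% in photoconversion. Of 8 electron carriers and small subunits, none was called in photoconversion against control, and 5 and 6 were called higher in Cst7>P2ry12 barcodes of control and photoconversion. The latter include Atpif1, the inhibitor of ATP synthase, with ratios of 1.32 and 1.87. Cyc1, the cytochrome c1 subunit of complex III, was called lower in photoconversion (0.576) and had a ratio of 0.959 in control. Of 7 carriers and channels, none was called in photoconversion against control and 5 were called higher in Cst7>P2ry12 barcodes of each library. Among them were Slc25a3, the phosphate carrier (1.33 and 1.41), and Vdac2, an outer membrane channel (1.28 and 1.52). Ucp2, an uncoupling protein of microglia, had ratios of 1.47 and 1.35.

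Of 13 citrate cycle genes, 10 reached the minimum in photoconversion against control, and 0 were called higher and 3 lower, against 7.36% and 16.3% of 4009 genes. Among these were Ogdh (0.717, 0.483 to 1.051) and Dld (0.686, 0.446 to 1.04), subunits of the oxoglutarate dehydrogenase complex, with intervals that include 1. Idh3g and Mdh2, the members of that list with the most UMIs, had ratios of 0.971 and 1.09. In Cst7>P2ry12 against P2ry12>Cst7 barcodes, 3 of 5 were called lower in control and 0 of 3 in photoconversion. Idh3g had log2 ratios of -0.59 and 0.064. Of 58 mitochondrial ribosome genes, 4 were called higher and 7 lower in photoconversion against control, close to those shares. In Cst7>P2ry12 barcodes 9 of 36 were called higher and 4 lower in control, and 9 of 25 higher and 0 lower in photoconversion. Of 30 assembly factors outside the rule, 13 reached the minimum, with 1 higher and 3 lower in photoconversion against control, among the latter Coa6 (0.738) and Tmem70 (0.751). In Cst7>P2ry12 barcodes 2 of 7 were called higher in control, and 4 of 7 higher and 1 lower in photoconversion. Of the genes for mitochondrial gene expression, Slirp, a stabiliser of mitochondrial mRNA, had ratios of 1.43 and 1.33. Of 8 regulators, Yy1 alone reached the minimum in photoconversion against control, with a ratio of 0.973.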

How the data were processed

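The deposited matrices hold whole UMI counts, which the authors produced with Cell Ranger 3.0.2, per the file headers. The mm10 build and bcl2fastq are named in the submitters' processing notes. Whether counting used strand, and how reads shared with pseudogene copies were treated, is not given in the sources used here. Coordinates, overlaps and transcript lengths come from GENCODE M21 and promoter windows from RefSeq (GRCm38.p6).

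Barcodes with at least 200 genes and at most 10% mitochondrial UMIs were kept; no doublets were removed. UMIs were summed per library or class and divided by the summed UMIs (CPM). Intervals (95%) are exact Poisson for CPM and exact conditional binomial for ratios. With 1 library per group no test was made. Depth was 2672902 UMIs in control and 2038693 in photoconversion. Scripts ran in Python 3.11.15 with numpy 2.4.6, scipy 1.17.1 and pandas 2.3.3, and edgeR 4.0.16 gave TMM factors only. The summing was tested on simulated data.

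The members and lists were chosen with earlier results of these data known. Some single genes are not reported here. Named genes were the mitochondrial genes, the 2 of most UMIs per complex, the 5 largest and 5 smallest ratios per comparison, isoform groups, and per other list the 2 of most UMIs and the 2 furthest from a ratio of 1. Alternatives changed the barcode limits, scaling, weighting, depth, classes and minimum counts.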

Additional observations from a re-analysis of the deposited data

Results flagged for a closer look

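Barcodes under the gene minimum, which no comparison above uses, also held nuclear members. There were 1340 such barcodes in control and 1608 in photoconversion, with medians of 85.5 and 58 UMIs. Nuclear members summed to 27717 CPM in the photoconversion library, above the 25891 CPM of the control library, a ratio of 1.07 (1.02 to 1.12). Markers of other cell types moved with this comparison, with neutrophil markers at 1124 CPM in control and 5190 in photoconversion, oligodendrocyte markers at 2616 and 3232, and microglia markers at 21531 and 17014, and their part in the ratio was not tested. Both values are above those of kept barcodes. Mitochondrial members summed to 184187 and 197454 CPM there and Malat1 to 1870 and 3324 CPM, in photoconversion and control.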

How the results depend on the processing

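No paired analysis was possible because each group has 1 library, and for the same reason no replicate was left out. The directions of the summed nuclear members held in every setting run for the Cst7 classes and the Malat1 ranges. Their sizes were less stable. Over the summed ratios and the count of members called, 75 of 128 settings moved a value beyond its main interval or set range. All values below are log2 ratios unless called counts.

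For photoconversion against control, the count of members called, 4, was 16 with each barcode weighing the same, 8 with barcodes thinned to 1000 UMIs, 8 without barcodes with markers of another type, 7 without the 10 deepest barcodes of each library, 2 with a minimum of 200 UMIs and 1 with a fold of 1.5. The nuclear ratio was -0.0027 with a mitochondrial limit of 5%, 0.034 with TMM scaling and 0.053 with equal weights. The mitochondrial ratio was 0.053 with that 5% limit, 0.0195 without a limit, 0.047 with TMM scaling, 0.046 thinned, 0.057 without other-type barcodes and 0.0055 without the 10 deepest, each of the opposite sign to the main value.

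For nuclear members in the Cst7 classes (control, then photoconversion), the ratios were 0.45 and 0.51 with the 5% limit, 0.88 and 0.92 with TMM scaling, 0.84 and 0.80 with equal weights, 0.72 and 0.76 thinned, 0.22 and 0.41 within the Malat1 middle range and 0.26 and 0.30 within the poor range. In control they were 0.56 without other-type barcodes, 0.56 with an excess of at least 3 UMIs and 0.47 without Cox6a2 and Ndufa1. For mitochondrial members they were, with TMM scaling 0.54 and 0.41, with equal weights 0.0033 and -0.059, without other-type barcodes 0.034 and 0.025, within the middle range 0.078 and -0.041 and without a mitochondrial limit 0.20 and -0.060. In control they were 0.20 with a minimum of 400 genes, 0.16 scaled without mitochondrial genes and Malat1 and 0.0041 within the poor range. In photoconversion they were 0.20 with the 5% limit, 0.11 without the 10 deepest and 0.13 with an excess of at least 3 UMIs.

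For the Malat1 ranges, nuclear ratios were 0.82 and 0.77 with the 5% limit, 1.46 and 1.40 with TMM scaling, 1.23 and 1.13 with equal weights, 1.08 and 1.10 thinned and 0.68 and 0.58 in P2ry12>Cst7 barcodes only. In control they were 0.97 without a limit, 0.85 scaled without mitochondrial genes and Malat1 and 0.96 with 3 equal groups by Malat1 share. Mitochondrial ratios were 0.39 and 0.34 with the 5% limit, 0.31 and 0.52 without a limit, 0.068 and 0.15 scaled without mitochondrial genes and Malat1, 0.68 and 0.72 with TMM scaling, -0.14 and 0.031 with equal weights, 0.21 and 0.25 without the 10 deepest and 0.075 and 0.15 with 3 equal groups. In control they were 0.060 thinned and 0.28 in P2ry12>Cst7 barcodes only.

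In 515 of 2233 settings of single genes the value moved beyond its main interval without turning a called sign. Only called values could be counted as turned, and the 2233 include values that were not called. The sign of a called value turned in 18 settings. Within the Malat1-poor range these were, for the photoconversion Cst7 classes, Atp5g3 (-0.14), Cox7a2 (-0.0063), Cox8a (-0.15), Ndufa2 (-0.046), Ndufa9 (0.60) and Ndufc1 (-0.17), and for control Cox7a2l (-0.39), Ndufb2 (-0.88) and Sdhd (0.37). Within the middle range of control they were Ndufb6 (-0.11) and Ndufc1 (-0.27). In the control classes they were also Ndufa9 (0.026) and mt-Nd4l (0.024) with TMM scaling, Sdhd with equal weights (0.14) and Uqcrc2 thinned (0.17). For the Malat1 ranges of control they were Ndufb6 (-0.088) and mt-Nd4l (0.17) in P2ry12>Cst7 barcodes only and mt-Nd4l with TMM scaling (0.18). The cause was not tested. The settings without Cox6a2 and Ndufa1, within the poor range and in P2ry12>Cst7 barcodes only were chosen after seeing the data. Depth limits single genes most in the small groups, such as the Malat1-rich range of photoconversion with 291059 UMIs, where 55 nuclear members reached the minimum against 70 in control.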
